A study of Homo sapiens with 2 samples.

Results

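Described here are the miR-99, miR-100 and miR-125 families in CL1-5, an invasive line derived from human lung adenocarcinoma. The members were the assays named miR-99a, miR-99b, miR-100, miR-125a or miR-125b once the species prefix and assay number were dropped, which gave 5 of the 365 miRNA assays on the card. Mature microRNAs (miRNAs) had been measured by reverse transcription and quantitative PCR in 1 RNA sample of CL1-5 cells carrying the empty plasmid pcDNA3.1 (the vector control) and 1 of CL1-5 cells overexpressing ANGPTL1, a secreted angiopoietin-like protein. Both came from stable lines kept under the antibiotic G418 for 4 weeks, and the labels do not say whether each is a clone or a pool. With 1 sample per group there is no replicate spread, so no value carries an error, no difference was tested, and each comparison is between these 2 RNA samples. In RNA from a whole culture, a change in the number of cells making a miRNA and a change per cell cannot be told apart.

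These miRNAs sit in 3 genomic clusters, each of which joins a miR-99 or miR-100 gene, a let-7 gene and a miR-125 gene. miR-125 is the vertebrate relative of lin-4, which with let-7 times developmental transitions in worms, and the 3 kinds of miRNA in a cluster can be cut from a shared primary transcript. miR-99 and miR-100 are known for repressing MTOR, a growth-controlling kinase. miR-125a and miR-125b are known for repressing the receptor kinases ERBB2 and ERBB3 and LIN28, the protein that blocks let-7 maturation, and miR-125b also for repressing the pro-apoptotic BAK1. let-7 represses RAS and HMGA2.

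The sequences show why the members form 2 families and how little separates some of them. They are the 5p arms, for which the older names without an arm have stood, taken from RefSeq (GRCh38.p14), where all 5 members were matched. Capitals mark the seed, bases 2 to 8, through which a miRNA pairs with its targets. The first 3 lines share 1 seed, the lines for miR-125a and miR-125b share another, and the let-7 cluster partners share another again.
miR-100: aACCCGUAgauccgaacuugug
miR-99a: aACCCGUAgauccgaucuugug
miR-99b: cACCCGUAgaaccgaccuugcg
miR-125a: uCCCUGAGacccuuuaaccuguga
miR-125b: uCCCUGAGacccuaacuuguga
let-7a: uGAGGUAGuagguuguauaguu
let-7c: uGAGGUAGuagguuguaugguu
let-7e: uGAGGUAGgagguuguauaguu
Counted from the 5′ end, miR-100 and miR-99a differ by 1 substitution, A16U, outside the seed, and their last 6 bases are the same. miR-99b differs from miR-99a by 4 substitutions (A1C, U11A, U16C and U21C), none of them in the seed. miR-125a has 24 bases and miR-125b 22, and they share the first 13 and the last 5. let-7c differs from let-7a by A19G and let-7e from let-7a by U9G. Whether the assays of such close sequences read each other's miRNA was not tested.

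The 3 clusters differ in size and in which mature RNA can be traced to them. On chromosome 11, on the minus strand inside the span of the long noncoding RNA gene MIR100HG, the hairpin of miR-100 (chr11:122152229-122152308) is followed by those of let-7a-2 (chr11:122146522-122146593) and miR-125b-1 (chr11:122099757-122099844), over 52.6 kb. On chromosome 21, on the plus strand inside MIR99AHG, miR-99a (chr21:16539089-16539169) is followed by let-7c (chr21:16539828-16539911) and miR-125b-2 (chr21:16590237-16590325), over 51.2 kb. On chromosome 19, on the plus strand inside SPACA6, a gene for a sperm protein, miR-99b (chr19:51692612-51692681), let-7e (chr19:51692786-51692864) and miR-125a (chr19:51693254-51693339) lie within 728 bases. Whether a hairpin lies in an exon or an intron was not analysed here. miR-100, miR-99a, let-7c and the 3 miRNAs on chromosome 19 each have 1 gene, so the mature RNA comes from that locus. Their measured level belongs to it only if the assay reads no other miRNA, which was not tested. Mature miR-125b is the same RNA from 2 genes and mature let-7a from 3, so their levels cannot be divided among loci.

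All 5 members were well detected in both samples, and miR-100 and miR-99a were among the most abundant miRNAs measured. The measure is the threshold cycle (Ct), at which the fluorescence of a PCR passes a fixed value. A lower Ct means more template, and an assay counted as detected below cycle 35 of 40. RNU48, the small nucleolar RNA used as reference, crossed at 20.79 cycles in control RNA and at 21.21 in RNA of ANGPTL1 cells. Below, where values come without a sample name, the control stands first and ANGPTL1 cells second. Levels are given relative to RNU48, as the log2 level (minus delta Ct) or as a percent of RNU48, which assume that each cycle doubles the template and that all assays amplify equally well. The latest Ct of any member was 27.56, so the detection limit touched none of them.

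miR-100 crossed threshold at 22.20 cycles in control cells and 21.97 in ANGPTL1 cells, which is 37.6% and 59.0% of the RNU48 level. miR-99a crossed at 22.41 and 22.24, a level of 32.5% and 49.0%. By Ct, miR-100 ranked 5 of 157 miRNAs detected in control cells and 3 of 158 in ANGPTL1 cells, and miR-99a ranked 8 and 4. Both thus stood near the top of both samples, with miR-100 ahead of its near-identical relative by 0.21 and 0.27 cycles, a gap for which no replicate spread exists. miR-99b, with the same seed, was far scarcer. It crossed at 27.36 and 27.56, a level of 1.05% and 1.23% of RNU48, and ranked 52 and 49. Its log2 level was 4.95 and 5.32 below that of miR-99a.

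The miR-125 members lay between these extremes. miR-125b crossed at 24.41 cycles and 24.40, a level of 8.13% and 10.96% of RNU48, and ranked 17 and 15. miR-125a crossed at 25.56 and 25.66, a level of 3.67% and 4.58%, and ranked 25 in both samples. miR-125b was therefore the higher of the miR-125 members, by 1.15 and 1.26 log2 units. The order of log2 levels was the same in both samples: miR-100, miR-99a, miR-125b, miR-125a and miR-99b, over a range of 5.16 and 5.59 log2 units.

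**Figure D1:**
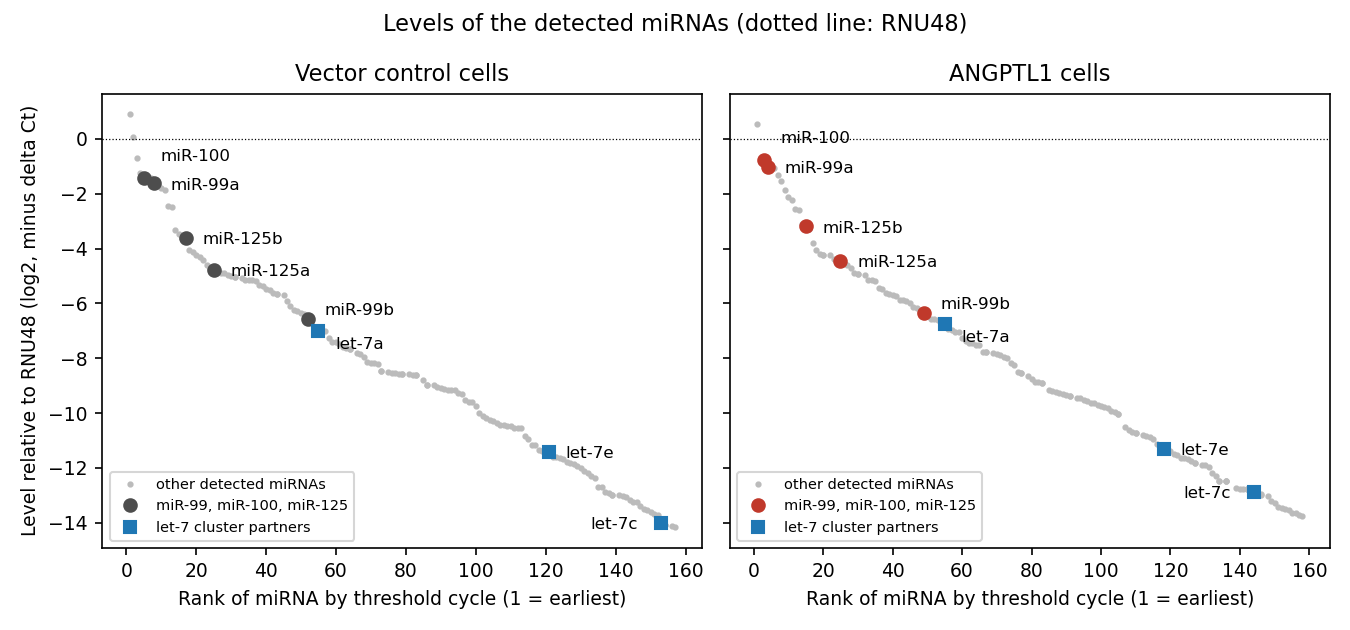
Log2 level relative to RNU48 (y axis) against rank by threshold cycle (x axis) for each miRNA detected in the vector control (left) and in ANGPTL1 cells (right); circles are the 5 members, squares the let-7 cluster partners, small points other miRNAs and the dotted line RNU48. miR-100 and miR-99a stand at ranks 5 and 8 in the control and 3 and 4 in ANGPTL1 cells, while let-7c stands at 153 and 144.

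The miRNAs specific to chromosomes 11 and 21 held most of the members' summed level. miR-100 alone made up 45.3% of the sum of the 5 percentages and 47.3%, and miR-99a 39.2% in both. miR-125b, which comes from chromosomes 11 and 21, added 9.80% and 8.78%. The chromosome 19 cluster gave the rest, with 4.41% and 3.67% from miR-125a and 1.27% and 0.98% from miR-99b. Among RNAs with 1 gene, miR-100 on chromosome 11 was thus the highest and miR-99a on chromosome 21 close behind. What part of miR-125b came from either locus was not measured.

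In each cluster the let-7 partner stood far below its neighbours, and the gap was widest on chromosome 21. let-7c crossed at 34.79 cycles and 34.08, close to the detection limit, although its hairpin starts 739 bases after that of miR-99a. The log2 level of miR-99a was 12.38 above that of let-7c in control cells and 11.84 above it in ANGPTL1 cells. On chromosome 19, let-7e crossed at 32.20 and 32.52, and its hairpin starts 174 bases after that of miR-99b. The log2 level of miR-99b was 4.84 and 4.96 above that of let-7e, and that of miR-125a 6.64 and 6.86 above. let-7a, with 3 genes, crossed at 27.78 and 27.95, and the log2 level of miR-100 was 5.58 and 5.98 above it. These gaps are differences of cycles within a sample and need no reference RNA. They do depend on equal efficiency of the assays and on each assay reading its own miRNA alone, and neither was tested.

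The order within a cluster was not the same everywhere. On chromosome 19 miR-125a, the last hairpin, was the highest, 1.80 and 1.90 log2 units above miR-99b. In the other clusters the first hairpin gave the highest level, with miR-100 2.21 and 2.43 log2 units above miR-125b and miR-99a 2.0 and 2.16 above it, even though the miR-125b signal adds up both loci.

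**Figure D2:**
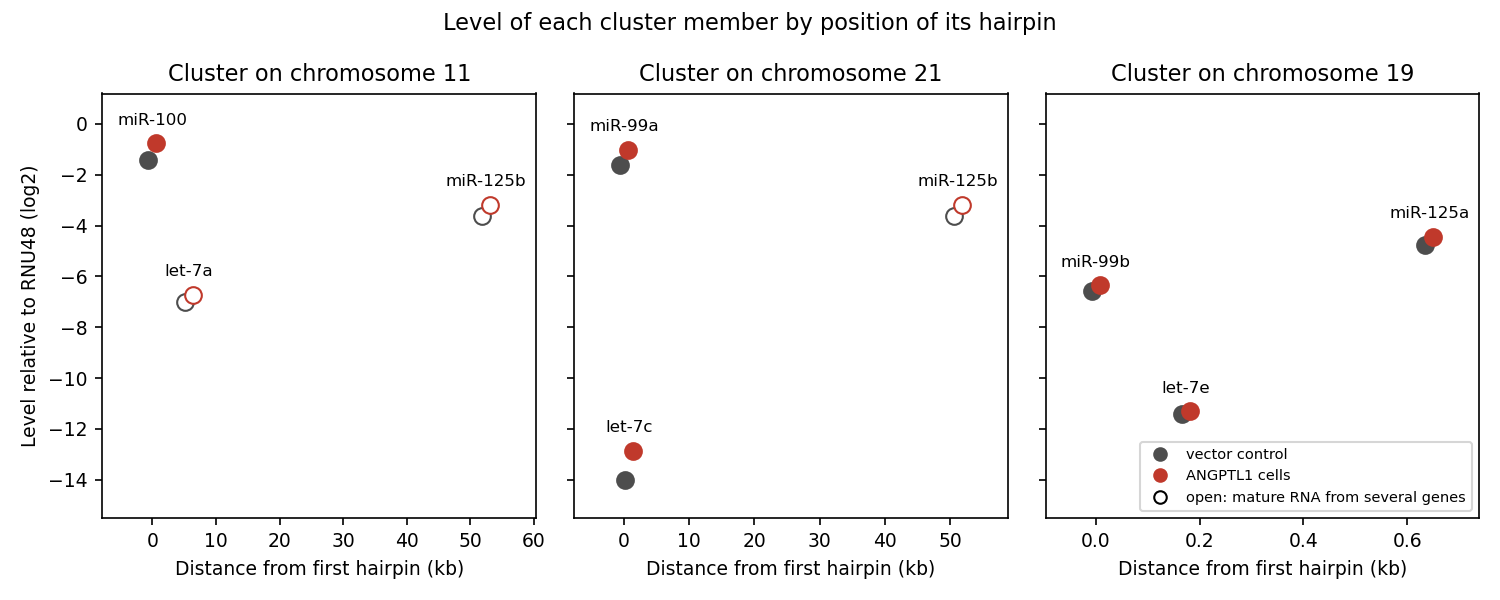
Log2 level relative to RNU48 (y axis) of each miRNA against the distance in kb of its hairpin from the first hairpin of the cluster in the direction of transcription (x axis, different scale per panel), in vector control (grey) and ANGPTL1 cells (red); points of the 2 samples are set slightly apart, and open points mark mature RNAs made from several genes. The let-7 member is the lowest of its cluster in all 3 panels, and let-7c is the lowest of all, at -14.00 and -12.87.

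Relative to RNU48 all 5 members were somewhat higher in ANGPTL1 cells, and none was past 2-fold in either direction. The log2 ratio of ANGPTL1 over control, from the deposited delta Ct values, was 0.65 for miR-100 (1.57-fold) and 0.59 for miR-99a (1.51-fold). It was 0.43 for miR-125b (1.35-fold), 0.32 for miR-125a (1.25-fold) and 0.22 for miR-99b (1.16-fold). The more abundant a member was, the higher its ratio, and the chromosome 19 members had the lowest values. By comparison, 145 miRNAs passed the detection limit in both samples, of which 7.59% passed 2-fold upward and 4.83% downward. At the smaller size of 1.5-fold, miR-100 and miR-99a passed upward, 2 of 5 members, and 0 of 5 passed downward, where 16.6% of detected miRNAs passed upward and 19.3% downward. That count rested on the reference: 0 members passed 1.5-fold upward without a reference or with the median Ct of detected miRNAs as reference (7.59% of detected miRNAs under each), and with their mean Ct only miR-100 did, miR-99a falling short at 0.57 log2 units (15.9% of detected miRNAs). The members' median log2 ratio was 0.43, and that of all detected miRNAs was -0.01.

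A ratio above 0 was found for 49.7% of the detected miRNAs and for all 5 members. Among the other miRNAs of similar abundance, those with a mean Ct between 22.1 (miR-100) and 27.5 (miR-99b), 44 in number, the log2 ratio had a median of -0.03 and quartiles of -0.33 and 0.19. Of these 44, 10 (22.7%) had a ratio at least as high as that of miR-99b, the lowest member, and 2 at least as high as that of miR-100. The members therefore lay above the upper quartile of miRNAs of their own abundance, but inside the range of -1.20 to 1.12 that these spanned. These are descriptions of 2 samples, and no test of the members as a set was made.

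**Figure D3:**
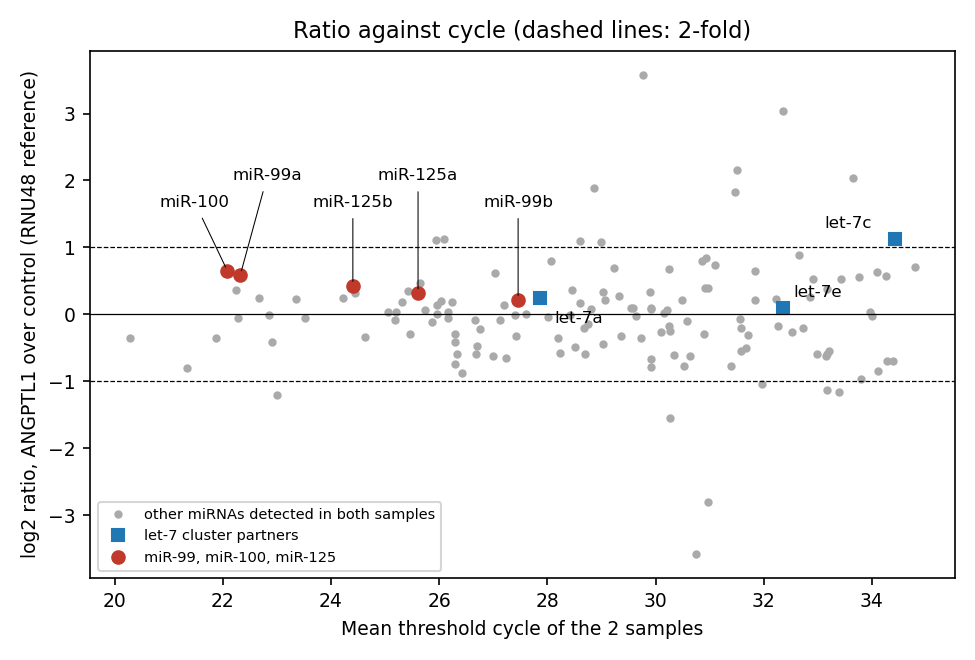
Log2 ratio of ANGPTL1 over control relative to RNU48 (y axis) against the mean threshold cycle of the 2 samples (x axis) for the 145 miRNAs detected in both; red circles are the 5 members, blue squares the let-7 cluster partners and dashed lines 2-fold. The members lie between 0.22 and 0.65, and let-7c, at a late cycle, lies above the upper line at 1.13.

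For miR-125b, miR-125a and miR-99b the direction of these small ratios rested on the reference. RNU48 crossed 0.42 cycles later in ANGPTL1 cells, and in the cycles themselves miR-100 and miR-99a were earlier there by 0.23 and 0.17, miR-125b by 0.01, and miR-125a and miR-99b later, with log2 ratios of -0.10 and -0.20. Without a reference 3 of 5 members were thus above 0, against 20.7% of detected miRNAs. The median log2 ratio of all detected miRNAs was then -0.43. With the median Ct of the detected miRNAs as reference, which lowers every ratio by 0.47, miR-100 (0.18) and miR-99a (0.12) stayed above 0 and miR-125b (-0.04), miR-125a (-0.15) and miR-99b (-0.25) did not, where 19.3% of detected miRNAs were above 0. Setting the median ratio of detected miRNAs to 0 instead left the members between 0.23 and 0.66. The sign was thus above 0 under all 5 references for miR-100 and miR-99a alone. Differences between members do not involve the reference: miR-100 differed from miR-99b by 0.43 more log2 units in ANGPTL1 cells than in the control, and from miR-99a by 0.06 more.

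**Figure D4:**
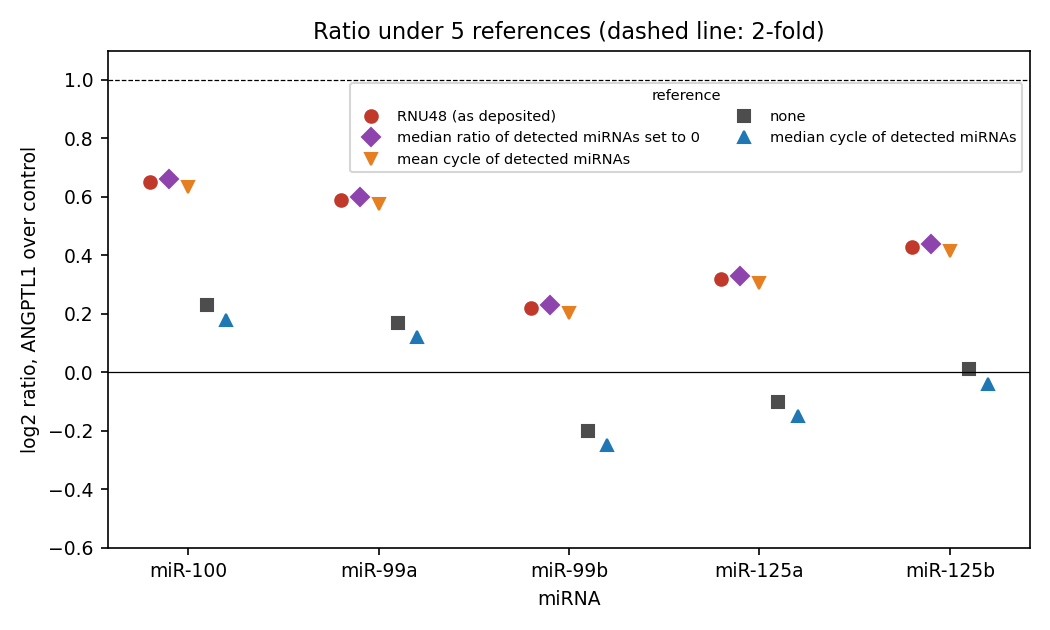
Log2 ratio of ANGPTL1 over control (y axis) for each member (x axis) under 5 references, RNU48 as deposited, the median ratio of detected miRNAs set to 0, the mean Ct of detected miRNAs, no reference and the median Ct of detected miRNAs. miR-100 and miR-99a lie above 0 under each, while miR-99b runs from -0.25 to 0.23.

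Among miRNAs with 1 gene, the ratios lay closer together within the chromosome 19 cluster than within that on chromosome 21. The wider spread on chromosome 21 rested on let-7c. On chromosome 21 the log2 ratio was 0.59 for miR-99a and 1.13 (2.19-fold) for let-7c, the assay close to the detection limit. On chromosome 19 it was 0.22 for miR-99b, 0.10 for let-7e and 0.32 for miR-125a. On chromosome 11 it was 0.65 for miR-100, and let-7a, with its 3 genes, was at 0.25. miR-125b, which comes from chromosomes 11 and 21, was at 0.43, below both miR-100 and miR-99a.

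Of the let-7 family with miR-98, 8 assays were analysed, let-7i not among them, and all were detected in both samples. Their log2 ratios ran from -0.09 (let-7g) to 1.88 (let-7b), with a median of 0.47. Of these assays, 2 were at least 2-fold higher, let-7b and let-7c, the latter close to the detection limit, and 0 at least 2-fold lower. The 5 members of the miR-99, miR-100 and miR-125 families had 0 and 0. Of all detected miRNAs, 7.59% passed 2-fold upward and 4.83% downward. In summed level the members stood far higher. The summed level of the 8 let-7 assays was 2.79% and 3.61% of RNU48, and that of the 5 members was 83.0% and 124.8%, which is 29.7-fold and 34.5-fold more. let-7g, the highest let-7 assay, stood at 1.48% and 1.39%, above miR-99b and below miR-125a.

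The miR-10 family, encoded among the HOX genes, resembles miR-100 in sequence but has another seed. It is shown because 19 of the 22 bases of miR-100 match those of miR-10a 1 base further along. Both seeds begin with ACCC at the same positions, and they end in GUA in miR-100 and in UGU in miR-10a.
miR-10a: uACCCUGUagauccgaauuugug
miR-10a crossed at 28.26 cycles and 27.88, a level of 0.56% and 0.98% of RNU48 and a log2 ratio of 0.80, which is 0.38 without a reference. miR-10b crossed at 36.54 and 36.04, later than the detection limit, and gives no ratio here. The level of miR-10a thus lay far below that of miR-100 in both samples.

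The miRNAs nearest to each member in delta Ct over the 2 samples were found among all 145, with the distance in cycles. miR-24, from the clusters it shares with miR-23 and miR-27, was nearest both to miR-100 (0.30) and to miR-99a (0.19), and miR-100 and miR-99a were each other's next neighbour (0.34). miR-125b was nearest to miR-15b (0.09) and miR-26a (0.30), and miR-125a to miR-26b (0.12) and miR-103 (0.25). miR-99b was nearest to miR-342 (0.18) and miR-324-3p (0.25). With 2 samples, such likeness says only that the levels were close.

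Marker miRNAs of the labelled cell type and of others were mostly late or undetected, apart from miR-126 and miR-9. Of 7 assays for epithelial miRNAs only miR-200c was detected, at 32.16 cycles and 30.77, and 4 stood at cycle 40 in both samples. The summed level of the detected epithelial assays was 0.038% and 0.133% of RNU48, that of fibroblast and smooth muscle assays (1 of 5 detected) 0.012% and 0.0073%, and that of muscle assays (1 of 4) 0.025% and 0.017%. Of 4 blood assays 1 was detected, in the control alone, and the liver assay in neither sample. The endothelial miR-126, with 2 assays, summed to 3.14% and 2.46%, and of 4 neuronal assays the 2 named miR-9 to 3.48% and 2.08%. The assays of 1 name differed: those of miR-126 crossed at 25.87 and 26.70, and at 29.86 and 29.95. Those of miR-9 crossed at 25.70 and 26.87, and at 30.11 and 31.16. The part of other cells in the members' ratios was not tested.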

How the data were processed

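Total RNA (500 ng) was reverse-transcribed in multiplex and run for 40 cycles on the v1.0 human miRNA panel of TaqMan low-density cards, per the labels' protocols. The 3 deposited tables held the average threshold cycle (Ct, a unit of its own), delta Ct (Ct minus that of RNU48, a log2 scale) and the fold change, a ratio of ANGPTL1 over control, per the file headers. Deposited delta Ct differed from the recomputed value by at most 0.01. Left unused were 2 sample columns that give delta Ct in linear form. How many wells were averaged, with what spread, threshold and software, is not given in the sources used here.

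Groups came from the treatment labels. The log2 ratio was control delta Ct minus ANGPTL1 delta Ct, positive where ANGPTL1 cells had more. Levels, ratios and counts were computed with Python 3.11.15 and pandas 2.3.3. Ratios and counts past a fold size used assays below cycle 35 in both samples. Ranks and summed levels of the marker lists used assays below cycle 35 in the sample at hand. The counting was run on simulated cycles without noise, where the ratio formula returns the values put in by construction. Alternatives were other references, detection limits, fold sizes and members left out. Named are the members, RNU48, the let-7 and miR-10 lists, and for each member the 2 nearest assays in delta Ct. let-7i was not analysed here; miR-200c, miR-126 and miR-9 were named after their values were seen. The members and lists were chosen with earlier results of these data known. Sequences and positions come from RefSeq (GRCh38.p14).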

Additional observations from a re-analysis of the deposited data

How the results depend on the processing

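The counts of members past 2-fold, 0 higher and 0 lower, did not depend on the reference. A detection limit of 32, 38 or none could not change them, because the latest member Ct was 27.56. Nor could a 4-fold size, because no member passed 2-fold. A 1.5-fold size gave 2 higher, a count that did depend on the reference: it was 0 without normalization, 0 with the median Ct of detected miRNAs and 1 with their mean Ct, settings added at this size after the data were seen. The count lower at 1.5-fold was 0 under each reference, where from 16.6% to 40.7% of detected miRNAs passed downward. Without normalization the log2 ratios were 0.23 (miR-100), 0.17 (miR-99a), 0.01 (miR-125b), -0.10 (miR-125a) and -0.20 (miR-99b), with a median of 0.01. With the median Ct of detected miRNAs as reference they were 0.18, 0.12, -0.04, -0.15 and -0.25, with a median of -0.04. By construction both settings shift every ratio by the same amount. Centring on the median ratio (median 0.44) or on the mean Ct (0.41), added after the data were seen, left every sign as it was, as did the recomputed delta Ct and the authors' deposited table. Leaving out each member in turn gave medians of 0.38 (without miR-100 or miR-99a), 0.46 (miR-125b) and 0.51 (miR-99b or miR-125a). Relative to the median Ct of detected miRNAs, log2 levels in the control and ANGPTL1 cells were 7.05 and 7.23 (miR-100), 6.84 and 6.96 (miR-99a), 4.84 and 4.80 (miR-125b), 3.69 and 3.54 (miR-125a) and 1.89 and 1.64 (miR-99b), with the same order. Level differences between cluster partners were the same from the deposited cycles. No paired analysis was possible because there was only 1 sample of either kind, and no replicate could be left out. A ratio under 2-fold cannot be set against noise here.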
